A study of Mus musculus with 6 samples.

Results

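The genes described here are 49 genes of the lysosome: cathepsins and other hydrolases that work in its lumen, proteins of its limiting membrane, and subunits of the proton pump that acidifies it. They were given as a list of gene symbols that uses no measured value, though it was chosen with earlier results of these data known. All 49 were found among the 54648 symbols of the deposited table of estimated counts. RNA was sequenced, in paired reads of 76 bp, from cells of the peritoneal cavity of C57BL/6 mice aged 6 to 8 weeks, 3 libraries labelled WT and 3 labelled FOXO3 KO. Both groups had received 3% thioglycollate, an irritant that recruits monocyte-derived macrophages into the abdomen, and were sampled 4 days later. The knockout is described without any promoter or Cre that would confine it to macrophages, and littermates of both sexes were genotyped to find homozygous WT and FOXO3 KO animals. The cells were pelleted without a sort, so each library holds whatever cells the cavity held. The labels number the libraries without tying each to an animal, and the p-values therefore measure the spread between these libraries, which may in part be technical.

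Lysosomes break down what a cell engulfs or recycles. A V-type proton ATPase pumps protons into the lumen, and the acid switches on proteases, glycosidases and lipases that reach the organelle mostly through mannose 6-phosphate receptors. Macrophages are rich in lysosomes because they digest microbes, dead cells and lipoproteins, and they carry isoforms such as cathepsin S and the pump subunit d2 that many other cells lack. Many lysosomal genes share a promoter element, built around the letters CACGTG, that is read by TFEB and its relatives MITF, TFE3 and TFEC. FoxO transcription factors, among them FOXO3, read a different core, TGTTTAC, and are known to take part in the control of autophagy.

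Sequences around CACGTG are shown for 8 of the 12 genes found to hold it. CACGTG is the feature of their control regions that lysosomal genes are known to share. Promoters were taken from RefSeq (build GRCm38.p6) as the 250 bases before and 50 bases after each gene's start in RefSeq. Of the 49 genes, 41 had an entry. Each line gives 30 bases, 5′ to 3′ on the strand of the gene, with CACGTG in capitals.
Ctsd: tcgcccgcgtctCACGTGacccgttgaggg
Atp6v1a: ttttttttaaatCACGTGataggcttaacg
Mcoln1: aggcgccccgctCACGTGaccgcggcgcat
Ctsl: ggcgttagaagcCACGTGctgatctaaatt
Lgmn: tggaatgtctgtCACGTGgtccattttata
Lamp1: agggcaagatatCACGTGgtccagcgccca
Glb1: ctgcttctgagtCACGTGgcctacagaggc
Ctsf: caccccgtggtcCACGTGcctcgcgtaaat
These windows lie at chr7:142387908-142387937 (minus strand) for Ctsd, chr16:44139373-44139402 (minus strand) for Atp6v1a and chr8:3500462-3500491 (plus strand) for Mcoln1. For Ctsl the window is chr13:64370739-64370768 on the minus strand, and for Lgmn it is chr12:102439124-102439153 on the minus strand. Those of Lamp1 (chr8:13159088-13159117), Glb1 (chr9:114401018-114401047) and Ctsf (chr19:4855074-4855103) are on the plus strand. All 8 lie before the gene's start in RefSeq. By the outermost gene bounds of GENCODE M21, used for positions elsewhere, the windows of Ctsd, Atp6v1a, Mcoln1, Ctsl and Lgmn lie inside the gene. Those of Lamp1, Glb1 and Ctsf lie before the gene there too. CACGTG, which reads the same on both strands, was present in the promoters of 12 of the 41 genes (29.3%), against 8.09% of the 27025 genes with a RefSeq promoter. Counted by promoter, it was in 12 of 48, or 25%, against 7.15% of all 32851 promoters of this length. The stricter form with T before and A after it, seen in the first 3 lines above, was found in 5 of the 41 genes (12.2%) against 1.12% of all genes with a promoter. TGTTTAC was in none of the 41 on either strand, and in 4.05% of all genes with a promoter. A match is a description of the letters in a window and does not show binding.

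Foxo3, the targeted gene, was measured first, since it checks the labels. Its level was 117, 107 and 73.1 CPM in WT 1, 2 and 3, against 4.71, 104 and 4.29 CPM in FOXO3 KO 1, 2 and 3 (CPM, counts scaled to a common library size). Its log2 fold change was -1.40 over all 6 libraries and -4.46 without FOXO3 KO 2. In edgeR's quasi-likelihood test the unadjusted p was 0.294 over all 6 libraries (adjusted p = 0.859). Without FOXO3 KO 2 it was 1.36e-05 (adjusted p = 0.105). The p of an exact permutation test (two-sided) was 0.20 in both comparisons. The smallest value possible for that test is 0.10 for 3 libraries against 3 and 0.20 for 3 against 2. The library labelled FOXO3 KO 2 lay within the WT range of Foxo3, and the counts over all 49 genes and the medians by role are also given without it, with the genes of the 49 whose sign turned. WT 3 stood apart in a different way. Its summed markers of resident peritoneal macrophages, 7 genes, reached 4311 CPM against 571 to 1009.9 CPM in the other libraries, and those of B cells, 8 genes, reached 5638 CPM against 295 to 1403 CPM. Mast cell markers, 7 genes, summed to 788 CPM there and to between 101 and 297 CPM elsewhere. The 12 general macrophage markers were similar in all libraries, between 6961 and 8158 CPM. Xist was high in WT 3 (871 CPM) and FOXO3 KO 3 (1129.7 CPM) and at most 0.177 CPM in the other libraries; the labels give no sex. Library totals ranged from 28083393 to 36424117 counts.

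All 49 lysosomal genes passed the filter on low counts. In the annotation, exons of 12 of them overlap those of a gene on the other strand by 50 bp or more, and 3 overlap a gene on the same strand (Ctsd with Gm49369, Ctsl with Gm49230 and Glb1 with Tmppe), so that their counts depend on how shared reads were assigned. They include the genes with the highest mean CPM in these libraries. Psap ranked 1, Lyz2 ranked 2, Ctsb ranked 3 and Ctsd ranked 4 among all genes, and Ctss ranked 8. These ranks are not corrected for gene length. To compare genes with each other, CPM was divided by the length of the annotated exons, merged over all annotated transcripts of a gene. This length can exceed that of the transcripts present, which lowers the value, so the order of genes is approximate. It was 1316 bp for Lyz2, 7555 bp for Mcoln1 and 5041 bp for Ctsf. On this scale the mean of the 6 libraries was 7022 CPM per kilobase for Lyz2, the gene of lysozyme M. It was 3574 for Psap, 3046 for Ctss, 2852 for Ctsd and 1389.6 CPM per kilobase for Ctsb. Compared within each library, Psap lay above both Ctss and Ctsd in 6 of 6 libraries, and Ctss lay above Ctsd in 5 of 6, the exception being FOXO3 KO 1. At the low end lay Mcoln1 at 11.6, Ctse at 3.06 and Ctsf at 1.15 CPM per kilobase. Within the pump, the macrophage isoform Atp6v0d2 (222 CPM per kilobase) lay above its ubiquitous counterpart Atp6v0d1 (113 CPM per kilobase) in 6 of 6 libraries.

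**Figure D1:**
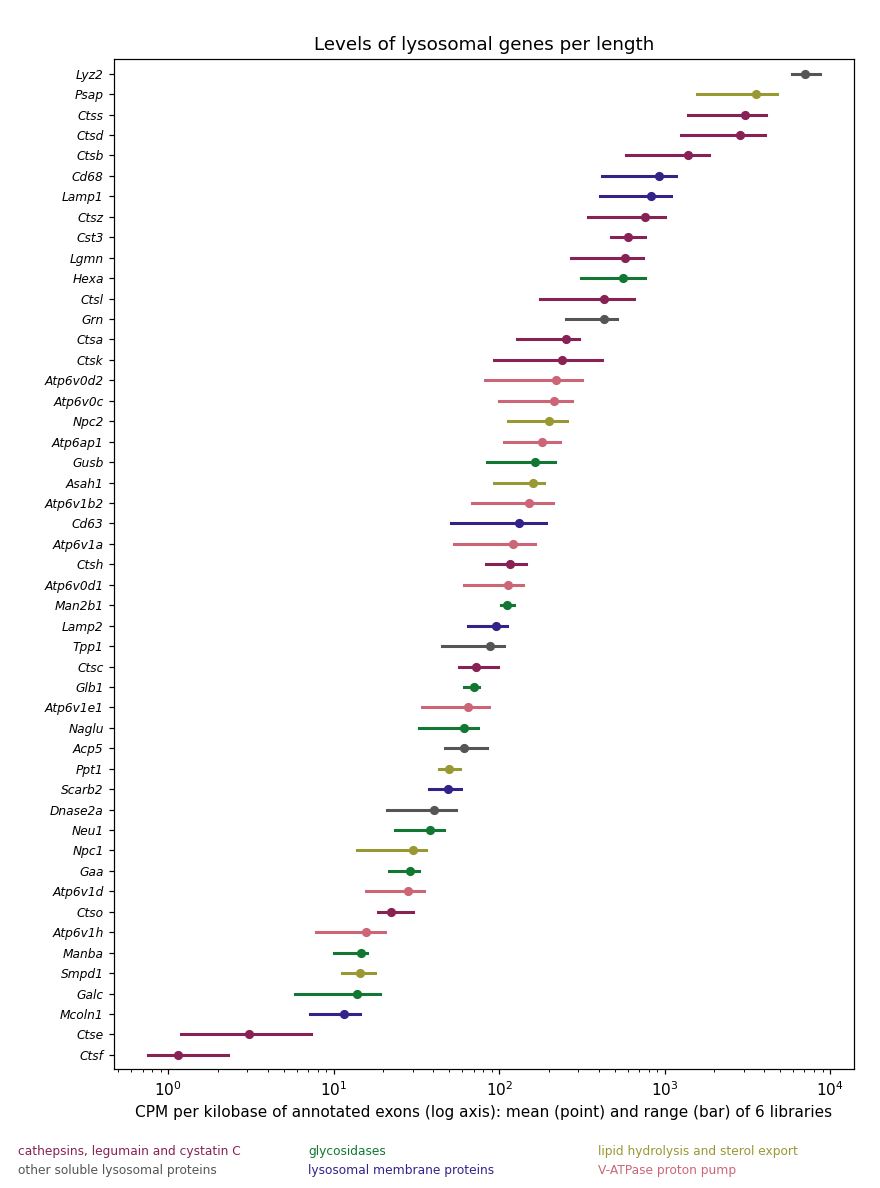
Level of each of the 49 lysosomal genes on a log axis, in CPM per kilobase of annotated exons; points are means and bars the range of the 6 libraries, coloured by role. Lyz2 leads at 7022 and Ctsf is lowest at 1.15 CPM per kilobase.

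The comparison of FOXO3 KO with WT asks whether these genes differ in level between the unsorted cells labelled FOXO3 KO and those labelled WT. Over all 6 libraries it includes FOXO3 KO 2, whose Foxo3 lay within the WT range. None of the 49 genes was called by edgeR's quasi-likelihood test with more than a 1.5-fold difference and an adjusted p under 0.05, where the share called among all 15608 genes tested was 0% as well. The smallest adjusted p among the 49 was 0.839. Over all 6 libraries, 38 of the genes had a higher estimate in FOXO3 KO and 11 a lower one, with a median log2 fold change of 0.12 against -0.01 for all genes tested. At an unadjusted p under 0.05, 2 were higher, which is 4.08% of the 49 and close to the 4.04% of all genes, and none was lower, where the share of all genes was 1.65%. Without the library labelled FOXO3 KO 2, 0% of all 16217 genes were called, and none of the 49. In that fit an unadjusted p under 0.05 was reached by none of the 49 in either direction, against 3.05% of all genes higher and 1.26% lower, and 34 estimates were higher with a median of 0.06. Leaving this library out turned the sign of 4 genes, Ctss (0.13 to -0.01), Ctsh (0.01 to -0.03), Scarb2 (0.02 to -0.06) and Mcoln1 (0.01 to -0.02). By role, the median without it was 0.01 for the cathepsins with Lgmn and Cst3, 0.09 for the glycosidases, 0.11 for lipid hydrolysis and sterol export, 0.02 for the other soluble proteins, 0.05 for the membrane proteins and 0.10 for the proton pump.

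The signs over all 6 libraries depended on WT 3. Without it, only 5 of the 49 estimates were higher in FOXO3 KO and 44 were lower, and the median log2 fold change went from 0.12 to -0.15, while that of all genes tested was 0.00. Leaving out WT 3 changed the sign of 33 of the 49 genes. Again none was called, as among all 15788 genes (0%), and the smallest adjusted p of the 49 was 0.513. An unadjusted p under 0.05 was reached by 2 genes that were higher, Ctsc and Ppt1, and by 2 that were lower, Ctsk and Acp5, each being 4.08% of the 49 against 6.15% higher and 2.25% lower among all genes. The plot of fold changes shows the shift from one side of 0 to the other for most genes, and its standard errors, which are wide with WT 3 and narrower without it.

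**Figure D2:**
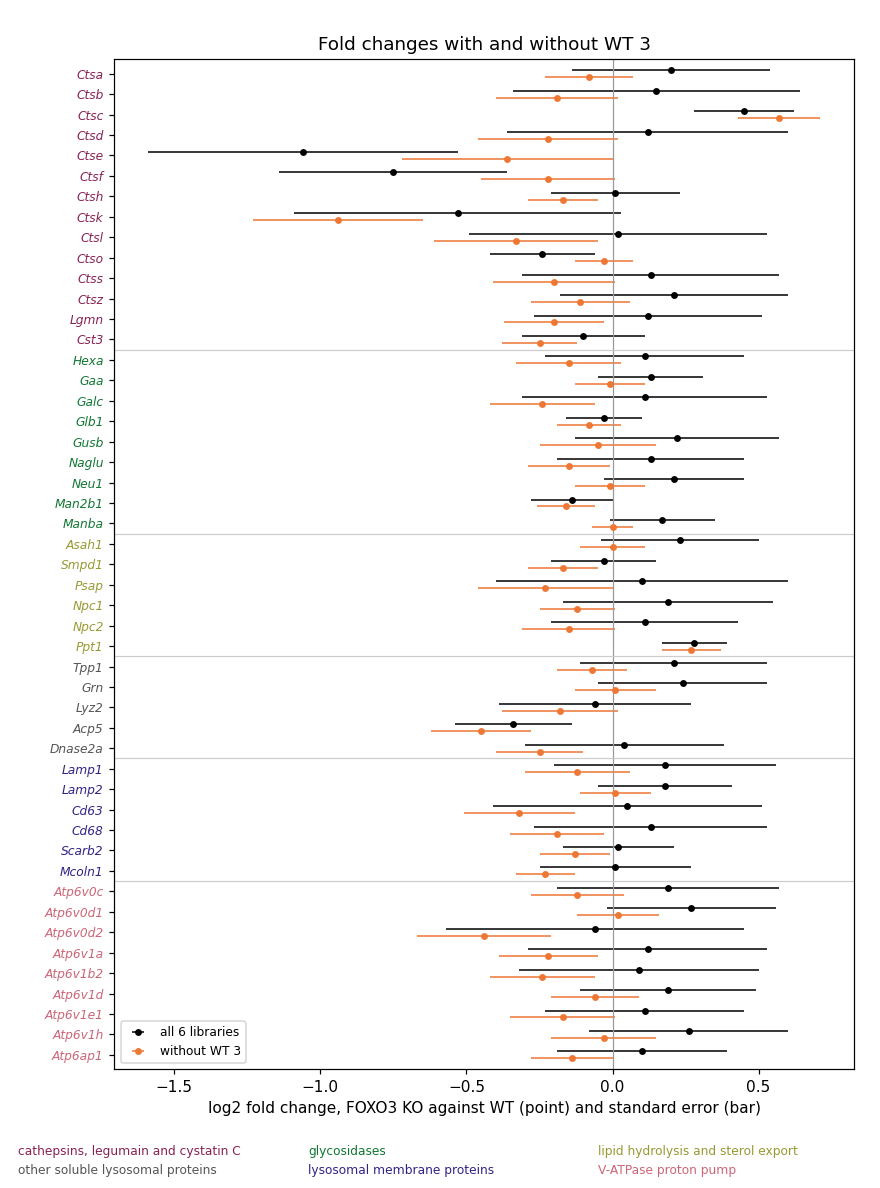
Log2 fold change of FOXO3 KO against WT for the 49 genes, with standard errors as bars, from edgeR's fit of all 6 libraries (black) and of the 5 libraries without WT 3 (orange). With WT 3, 38 of the 49 estimates lie above 0, and without it 5 do.

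The pattern behind this is a low level of most lysosomal genes in WT 3. It was the lowest of the 6 libraries for 41 of the 49 genes, where the share among all genes tested was 37.5%. WT 2 was the highest of the 6 for 35 of the 49, against 19.9% of all genes, so that both ends of the range were usually held by WT libraries. On the log2 scale, WT 3 lay below the mean of WT 1 and 2 by a median of -1.04 across the 49 genes, against 0.02 across all genes tested. FOXO3 KO 3, the other library with high Xist, showed a smaller step in the same direction: it lay below both other FOXO3 KO libraries for 44 of the 49 genes, against 35.0% of all genes, with a median of -0.31 relative to their mean. FOXO3 KO 3 was nevertheless above WT 3 for 43 of the 49, against 50.5% of all genes, by a median log2 difference of 0.72. Summed over the 49 genes, expression was 68200.1, 84341 and 34864 CPM in WT 1, 2 and 3, against 72581, 70051 and 56874 CPM in FOXO3 KO 1, 2 and 3. The lowest sum belonged to the library with the highest resident macrophage, B cell and mast cell markers. In bulk RNA, fewer cells of a type and less of their RNA per cell cannot be told apart, and the part of these cells in the low level of WT 3 was not tested. High Xist came together with these markers in WT 3, where they cannot be told apart. Xist was high in a single library of each group, and its link to lysosomal levels was not tested.

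**Figure D3:**
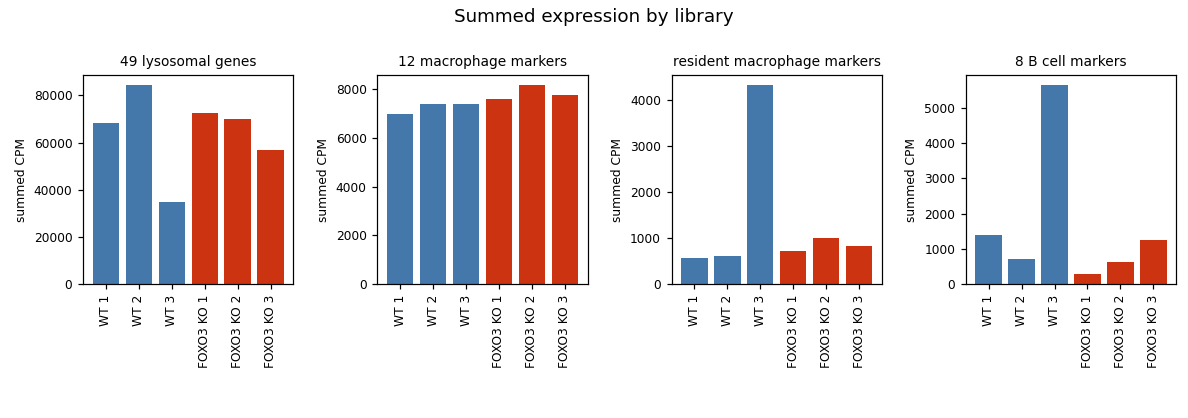
Summed CPM in each library (blue, WT; red, FOXO3 KO) of the 49 lysosomal genes, 12 macrophage markers, 7 markers of resident peritoneal macrophages and 8 B cell markers. WT 3 has the lowest lysosomal sum, 34864 CPM, and the highest resident macrophage and B cell sums, 4311 and 5638 CPM.

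The cathepsins, with the asparaginyl endopeptidase legumain (Lgmn) and the inhibitor cystatin C (Cst3), form the largest group. Of these 14 genes, 9 had a higher and 5 a lower estimate in FOXO3 KO over all 6 libraries, with a median log2 fold change of 0.07 that became -0.20 without WT 3. Ctsc encodes cathepsin C, a dipeptidyl peptidase that activates the serine proteases of neutrophil and mast cell granules. It was 332, 332 and 411 CPM in WT 1, 2 and 3, against 441, 449.5 and 575 CPM in FOXO3 KO 1, 2 and 3. The groups did not overlap, and the lowest FOXO3 KO library lay above WT 3, the highest of the WT libraries. Means were 358 ± 45.8 CPM for WT and 489 ± 75.1 CPM for FOXO3 KO (SD, n = 3 each). The log2 fold change, here and below ± its standard error, was 0.45 ± 0.17 (unadjusted p = 0.0371 and adjusted p = 0.839 from edgeR), 0.57 without WT 3 and 0.51 without the library labelled FOXO3 KO 2. The unadjusted p was above 0.05 whenever any library other than WT 3 was left out, at most 0.135. The gene lies at chr7:88278085-88310888 (GRCm38, plus strand), and no other annotated gene overlaps its exons by 50 bp or more. Neutrophil markers, 12 genes that include S100a8, summed to 217, 225 and 137 CPM in WT, and to 503, 231 and 426 CPM in FOXO3 KO 1, 2 and 3. The larger sums of FOXO3 KO 1 and 3 lay mainly in S100a9 (164 and 117 CPM, against 0.252 to 5.61 CPM in WT) and S100a8. Csf3r was 137, 139 and 116 CPM in WT, against 159, 139 and 164 CPM in FOXO3 KO. Retnlg was 17.5, 21.2 and 3.47 CPM in WT, against 21.7, 17.0 and 18.4 CPM in FOXO3 KO. Cxcr2 was 0.886, 0.882 and 0.587 CPM in WT, against 18.7, 2.23 and 14.4 CPM in FOXO3 KO. Ly6g, Camp, Elane and Mpo were at most 0.168 CPM in any library. Of the 12 neutrophil markers, 8 were tested, and all 8 had a higher estimate in FOXO3 KO over all 6 libraries. Their median log2 fold change was 0.63, against -0.01 for all genes tested. These estimates include WT 3, which was the lowest library for 8 of the 12 markers. For Retnlg and Mmp8, WT 1 and 2 lay within the range of the FOXO3 KO libraries. Estimates of these markers without WT 3 or without the library labelled FOXO3 KO 2 were not made. All 7 mast cell markers had a lower estimate in FOXO3 KO over all 6 libraries, with a median of -0.79, and all 7 were highest in WT 3. The part of neutrophils or mast cells in the level of Ctsc was not tested.

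Ctsk, the collagen-degrading cathepsin K known from osteoclasts, was among the lower genes. It measured 517, 633 and 141 CPM in WT 1, 2 and 3 against 387, 318 and 188 CPM in FOXO3 KO 1, 2 and 3. All FOXO3 KO libraries lay below WT 1 and 2, but WT 3 was the lowest of all. The log2 fold change was -0.53 ± 0.56 (adjusted p = 0.872 from edgeR) with WT 3 and -0.94 ± 0.29 (unadjusted p = 0.0157 and adjusted p = 0.516) without it, and -0.58 without the library labelled FOXO3 KO 2. Of the 49 genes, Ctsk also had the largest step between WT 3 and the other WT libraries, with a log2 difference of -2.02.

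The abundant cathepsins differed more between WT 3 and the other libraries than between the groups. Ctsb, a cysteine protease, was 9222, 11172 and 3529 CPM in WT, against 9679, 9272 and 7576 CPM in FOXO3 KO. Ctsd, the main aspartic protease of the lysosome, was 6892, 9444 and 2969 CPM in WT, against 7805, 7481 and 5633 CPM in FOXO3 KO. Ctss, which trims the invariant chain of MHC class II, was 4421, 5559.6 and 1885 CPM in WT, against 4353, 5072 and 3526 CPM in FOXO3 KO. In each of these the FOXO3 KO libraries lay inside the WT range. The same holds for the cysteine protease Ctsl, the carboxypeptidase Ctsz, the aminopeptidase Ctsh, Lgmn and Cst3, whose log2 fold changes over all 6 libraries were 0.02, 0.21, 0.01, 0.12 and -0.10. Ctsa, the protective protein of galactosidase and sialidase, had an estimate of 0.20 that became -0.08 without WT 3.

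Ctse, Ctsf and Ctso had their highest level of the 6 libraries in WT 3. Ctse, an aspartic protease of endosomes, was 9.97, 6.28 and 23.1 CPM in WT, against 3.79, 8.06 and 7.08 CPM in FOXO3 KO. Ctsf was 5.95, 4.23 and 11.6 CPM in WT, against 4.25, 4.96 and 3.81 CPM in FOXO3 KO. Ctso was 109, 106 and 154 CPM in WT, against 95.5, 117 and 99.9 CPM in FOXO3 KO. The groups overlapped for all 3 cysteine or aspartic proteases. Their log2 fold changes over all 6 libraries were -1.06, -0.75 and -0.24, without WT 3 they were -0.36, -0.22 and -0.03, and without the library labelled FOXO3 KO 2 they were -1.27, -0.85 and -0.33.

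**Figure D4:**
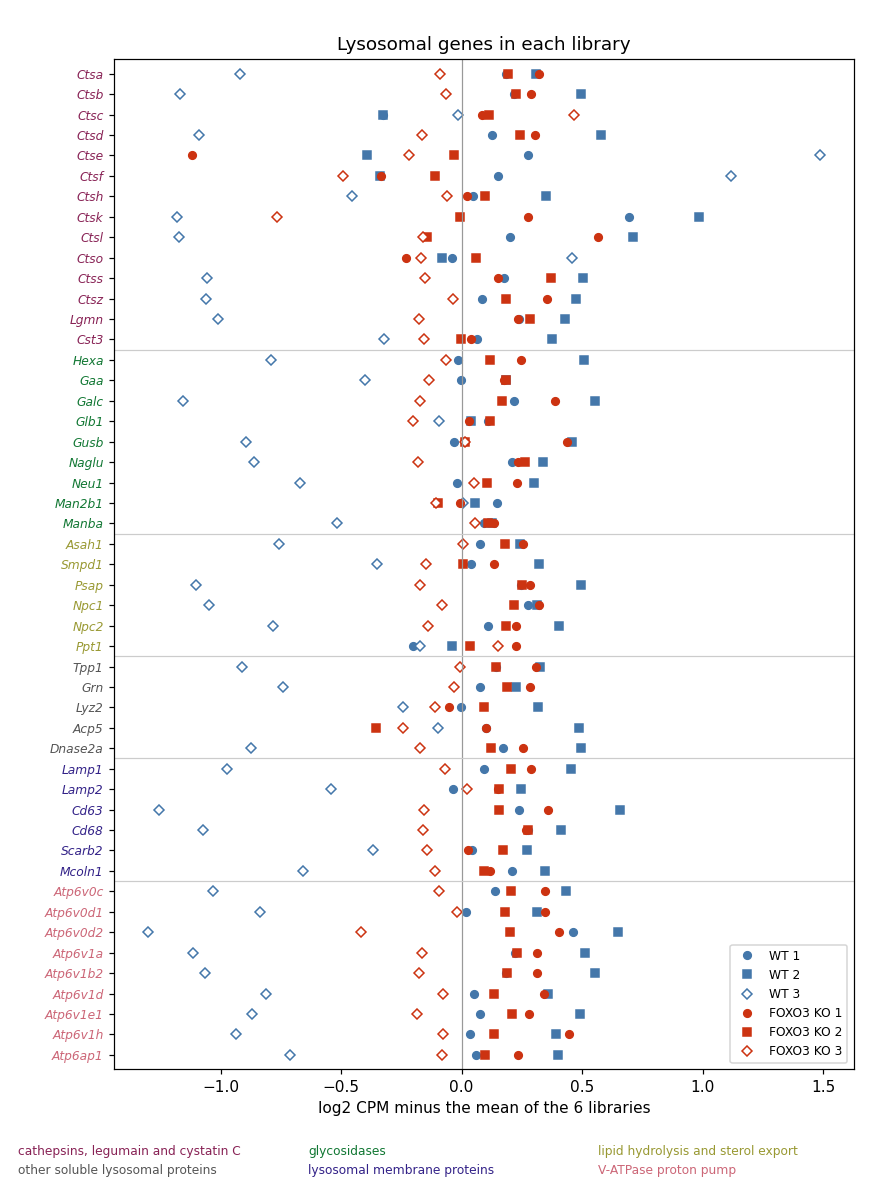
Log2 CPM of each gene in each library minus the mean of the 6 libraries (blue, WT; red, FOXO3 KO; open diamonds, WT 3 and FOXO3 KO 3, the libraries with high Xist). WT 3 is the lowest library for 41 of the 49 genes and the highest for Ctse, Ctsf and Ctso.

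The 9 glycosidases remove sugars from glycoproteins, glycolipids and glycogen. Of these, 7 had a higher estimate in FOXO3 KO with all 6 libraries (median log2 fold change 0.13), and without WT 3 the median was -0.08 with the estimates between -0.24 and 0.00. Man2b1, the lysosomal alpha-mannosidase at chr8:85083270-85098282, was 989, 929.7 and 899 CPM in WT 1, 2 and 3, against 891, 836 and 831 CPM in FOXO3 KO 1, 2 and 3. It was the only one of the 49 genes whose FOXO3 KO libraries all lay below every WT library (1 of 49, or 2.04%, against 5.36% of all genes). The gap was small: means were 939 ± 46.1 CPM and 853 ± 33.4 CPM (SD, n = 3 each), and the log2 fold change was -0.14 ± 0.14 (adjusted p = 0.867 from edgeR), and -0.12 without the library labelled FOXO3 KO 2. Glb1, the acid beta-galactosidase often used as a senescence marker, kept to a narrow range of 183 to 228 CPM in the 6 libraries, with a log2 fold change of -0.03. Gusb, the beta-glucuronidase, ranged from 386 CPM in WT 3 to 986 CPM in WT 2, and Galc, which splits galactosylceramide, from 87.1 to 285 CPM in the same libraries. Hexa (a hexosaminidase subunit), Gaa (acid alpha-glucosidase), Naglu, the sialidase Neu1 and the beta-mannosidase Manba had log2 fold changes of 0.11, 0.13, 0.13, 0.21 and 0.17, which without WT 3 were between -0.15 and 0.00.

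The 6 genes of lipid hydrolysis and sterol export had a median log2 fold change of 0.15, and of -0.14 without WT 3. Ppt1, a thioesterase that removes palmitate from proteins, was 159, 178 and 162 CPM in WT 1, 2 and 3, against 214, 187 and 203 CPM in FOXO3 KO 1, 2 and 3. Each FOXO3 KO library lay above each WT library. Means were 166 ± 10.3 CPM in WT, against 201 ± 13.6 CPM in FOXO3 KO (SD, n = 3 each), and WT 3 did not stand apart here. The log2 fold change was 0.28 ± 0.11 (unadjusted p = 0.0403 and adjusted p = 0.839 from edgeR), 0.27 without WT 3 and 0.33 without the library labelled FOXO3 KO 2. With WT 1, FOXO3 KO 1, 2 or 3 left out, the unadjusted p was above 0.05, at most 0.155. Exons of Ppt1 (chr4:122836242-122859175, plus strand) overlap those of Cap1 on the other strand, and whether the counting used strand is not given in the sources used here.

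Ctsc and Ppt1 were the only genes of the 49 with every FOXO3 KO library above every WT library, 4.08% against 7.00% of all genes. Without the library labelled FOXO3 KO 2, the same 2 genes met this condition among the 49, against 11.0% of all genes, and Man2b1 and Ctso met the opposite one, 4.08% against 9.23% of all genes. Non-overlap was thus no more common among the 49 genes than among all genes tested.

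**Figure D5:**
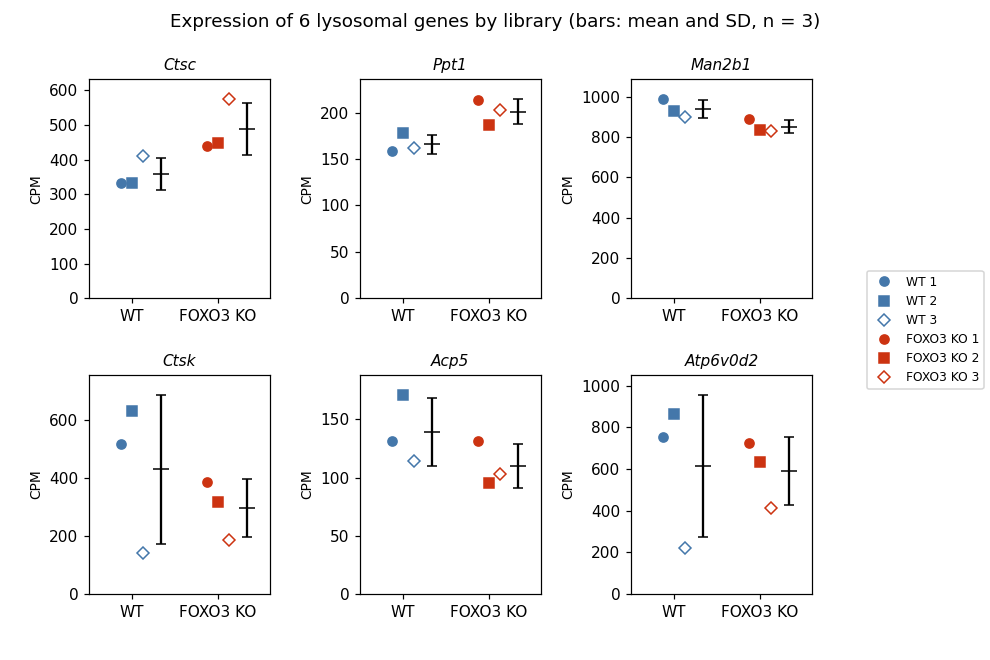
CPM in each library of 6 genes (blue, WT; red, FOXO3 KO; open diamonds, WT 3 and FOXO3 KO 3), with the mean and SD of each group (n = 3) as black bars. Ctsc and Ppt1 do not overlap between groups, nor does Man2b1, while for Ctsk and Atp6v0d2 WT 3 lies below all other libraries.

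Psap encodes prosaposin, the precursor of activators that present lipids to the hydrolases. It was 10984, 13062 and 4313 CPM in WT, against 11269.8, 11004 and 8207 CPM in FOXO3 KO, all FOXO3 KO libraries lying inside the WT range, with a log2 fold change of 0.10 ± 0.50. Npc1 and Npc2, which hand cholesterol out of the lysosome, had estimates of 0.19 and 0.11 that were -0.12 and -0.15 without WT 3. Asah1 (acid ceramidase) and Smpd1 (acid sphingomyelinase) had estimates of 0.23 and -0.03, and of 0.00 and -0.17 without WT 3.

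Among the other soluble proteins, Acp5, the tartrate-resistant acid phosphatase, was 131, 171 and 114 CPM in WT, against 131, 95.4 and 103 CPM in FOXO3 KO. FOXO3 KO 2 and 3 lay below all WT libraries, and FOXO3 KO 1 was level with WT 1. Its log2 fold change was -0.34 ± 0.20 (adjusted p = 0.843 from edgeR), and without WT 3 it was -0.45 ± 0.17 (unadjusted p = 0.0396 and adjusted p = 0.564). Without the library labelled FOXO3 KO 2 it was -0.24. Acp5 (chr9:22126727-22135711, minus strand) shares exon sequence with 6530413G14Rik on the other strand. Lyz2 varied less than the other abundant genes, with 9151, 11429 and 7746 CPM in WT, against 8839.8, 9779 and 8499 CPM in FOXO3 KO, and a log2 fold change of -0.06. Reads that Lyz2 shares with its close copy Lyz1, which was at 291 to 488 CPM, depend on how the counting divided them. Tpp1, a tripeptidyl peptidase, Grn, which encodes progranulin, and Dnase2a, the acid DNase, had estimates of 0.21, 0.24 and 0.04, and of -0.07, 0.01 and -0.25 without WT 3.

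The 6 membrane proteins had estimates between 0.01 and 0.18 over the 6 libraries, of which 4 stayed above 0 without the library labelled FOXO3 KO 2 and 1 without WT 3, and all 6 were lowest in WT 3. Lamp1, the major glycoprotein of the membrane, was 2264, 2904 and 1079.9 CPM in WT, against 2592, 2444 and 2021 CPM in FOXO3 KO. Cd68, used as a macrophage marker, was 1337, 1472 and 525 CPM in WT, against 1329, 1338 and 990.4 CPM in FOXO3 KO. For both, the FOXO3 KO libraries lay inside the WT range. Cd63, a tetraspanin, had the largest step of these genes, with 187 CPM in WT 3 and 527 and 705 CPM in WT 1 and 2. Without WT 3 the estimates went from -0.32 for Cd63 to 0.01 for Lamp2. Scarb2, the carrier of glucocerebrosidase, had an estimate of -0.13 there, and Mcoln1, the calcium channel TRPML1, one of -0.23 with an unadjusted p of 0.0533.

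The 9 subunits and accessory proteins of the proton pump behaved alike. All 9 were lowest in WT 3, with a median log2 difference of -1.15 from the mean of WT 1 and 2, all 9 were lower in FOXO3 KO 3 than in FOXO3 KO 1 and 2, and all 9 were higher in FOXO3 KO 3 than in WT 3. Their median log2 fold change was 0.12 with all libraries and -0.14 without WT 3. Atp6v0d2 was 756, 862 and 223 CPM in WT 1, 2 and 3, against 727, 632 and 412 CPM in FOXO3 KO 1, 2 and 3. The FOXO3 KO libraries lay between WT 3 and WT 1, and the log2 fold change was -0.06 ± 0.51 (adjusted p = 0.983 from edgeR) with WT 3 and -0.44 ± 0.23 (adjusted p = 0.685) without it, and -0.11 without the library labelled FOXO3 KO 2. Atp6v0d1, the isoform found in all cells, was 198, 243 and 109.5 CPM in WT, against 249, 222 and 193 CPM in FOXO3 KO, with estimates of 0.27 and 0.02. The ratio of Atp6v0d2 to Atp6v0d1 was 3.82, 3.54 and 2.04 in WT and 2.92, 2.85 and 2.13 in FOXO3 KO, lowest in the 2 libraries with high Xist. For the catalytic head subunits Atp6v1a and Atp6v1b2 the estimates were 0.12 and 0.09, and -0.22 and -0.24 without WT 3. Those of the proteolipid Atp6v0c, the stalk subunits Atp6v1d, Atp6v1e1 and Atp6v1h and the accessory protein Atp6ap1 were between 0.10 and 0.26, and between -0.17 and -0.03 without WT 3.

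Genes with and without CACGTG in their promoter window had similar medians of the step in WT 3. The window of 300 bases does not show CACGTG that lies elsewhere. The 8 genes without a promoter entry, Atp6v0d2 and Ctsb among them, are in neither set. The part of CACGTG in these levels was not tested. The 12 genes with CACGTG had a median log2 difference of -1.15 between WT 3 and the mean of WT 1 and 2, and the 29 with a promoter that lacks it had one of -1.02. Ctsd and Ctsl, which hold it, were lower in WT 3 by log2 differences of -1.44 and -1.63, and Glb1, which also holds it, by -0.17, while Ctsf, a further holder, was higher by 1.21. The median log2 fold changes of FOXO3 KO against WT were 0.12 and 0.11 for genes with and without it, and -0.17 and -0.15 without WT 3.

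Other genes of the pathway, 90 in 6 lists, were measured in the same fits. Of these, 89 were tested; Cst6 did not pass the filter. Over all 6 libraries 75 had a higher and 14 a lower estimate in FOXO3 KO, the median log2 fold change was 0.12, and 77 of the 89 were lowest in WT 3. Without WT 3, 27 estimates were higher and 62 lower, with a median of -0.07, and without the library labelled FOXO3 KO 2 there were 70 higher and 19 lower. None was called, and at an unadjusted p under 0.05 there were 2 higher and 2 lower genes of the 89, where the shares of all genes were 4.04% and 1.65%. Plbd1, a phospholipase B-like protein, was 101, 110.2 and 93.9 CPM in WT, against 131, 148 and 183 CPM in FOXO3 KO, without overlap, as in 7.00% of all genes. Its log2 fold change was 0.60 ± 0.15 (unadjusted p = 0.00709 and adjusted p = 0.714 from edgeR), 0.55 without WT 3 and 0.63 without the library labelled FOXO3 KO 2. Arsb, arylsulfatase B, had a log2 fold change of 0.33 (unadjusted p = 0.0472, adjusted p = 0.839), and of 0.44 without the library labelled FOXO3 KO 2. Gga2, an adaptor that sorts mannose 6-phosphate receptors, was 83.9, 89.6 and 132 CPM in WT, against 74.1, 69.5 and 72.2 CPM in FOXO3 KO, again without overlap, as in 5.36% of all genes in this direction. The log2 fold changes of Gga2 and of the arginine sensor Slc38a9 were -0.50 and -0.36 with all libraries, -0.26 for both without WT 3, and -0.47 and -0.39 without the library labelled FOXO3 KO 2. The largest estimates of the lists with no gene past this threshold were 0.36 for the pump subunit Atp6v0a1, 0.31 for Fnip2, a partner of folliculin, and -0.55 for the protease inhibitor Serpinb1a, which without WT 3 were 0.04, -0.09 and 0.15.

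The transcription factors that read CACGTG were looked at after their values were seen. Tfeb was 73.2, 71.0 and 45.2 CPM in WT, against 59.6, 61.9 and 53.5 CPM in FOXO3 KO, and Mitf was 131, 127 and 42.7 CPM in WT, against 104, 114 and 86.2 CPM in FOXO3 KO. For both, the FOXO3 KO libraries lay below WT 1 and 2 and above WT 3. The log2 fold change of Tfeb was -0.11 with all libraries and -0.30 without WT 3 (unadjusted p = 0.0145 and adjusted p = 0.516 from edgeR), and that of Mitf was 0.02 and -0.34 (unadjusted p = 0.0337 and adjusted p = 0.552). Without the library labelled FOXO3 KO 2 they were -0.16 and -0.08. Tfe3 and Tfec had estimates of 0.10 and 0.04 with all libraries, -0.08 and -0.27 without WT 3, and 0.12 and 0.15 without the library labelled FOXO3 KO 2.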

How the data were processed

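The authors deposited 1 table of estimated counts per gene symbol, without normalization, for the 6 libraries; the submitters' processing notes name STAR 2.6.1d, kallisto 0.46.0, DESeq2 and the build mm10 without their roles. Their annotation and filters were not stated there or in the paper. Values within 0.01 of a whole number made up 81.4% of the deposited table; the others were rounded to the nearest count. Groups follow the labels. Genes passing filterByExpr were tested with edgeR 4.0.16 in R 4.3.3 (TMM factors 0.936 to 1.1, common dispersion 0.103, glmQLFit and glmQLFTest, Benjamini-Hochberg adjustment over all genes tested); CPM used the TMM-scaled library size, and each standard error was derived from the log2 fold change and its F statistic. Alternatives used limma 3.58.1 and DESeq2 1.42.0. Exon lengths, positions and overlaps of at least 50 bp came from GENCODE M21 (GRCm38, the assembly also called mm10). Every listed gene is named. Of the related lists, each gene with an unadjusted p under 0.05 over all 6 libraries is named. Where a list had none, the gene with its largest log2 fold change in size is named. Tfeb, Mitf, Tfe3, Tfec, Pld3, Cd164, Pld4 and single markers were chosen after their values were seen. The members and lists were chosen with earlier results of these data known. Counting error is small at these depths, and the number of libraries limits the precision.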

Additional observations from a re-analysis of the deposited data

How the results depend on the processing

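No lysosomal gene was called under any alternative, although over all genes the likelihood ratio test of edgeR called 109, DESeq2 124 and DESeq2 without the library labelled FOXO3 KO 2 108, against 0 in the reported fit. limma-voom called 0. The count of 2 genes of the 49 that were higher at an unadjusted p under 0.05 became 1 under the likelihood ratio test, limma-voom, no filter and library size without factors, where also only 1 gene had all FOXO3 KO libraries above WT. Among all genes, those past that p in either direction numbered 1044 of 15608 under the likelihood ratio test and 815 of 15608 under limma-voom. They numbered 1618 of 31439 with no filter and 788 of 15608 with library size without factors. Among the related genes, the 2 higher became 1 under the likelihood ratio test, limma-voom, no filter and the Xist covariate, and the 2 lower became 1 under the likelihood ratio test, upper-quartile factors and no filter, and 0 with library size without factors and with DESeq2 without FOXO3 KO 2. Atp6v0d2 had an estimate of 0.12 under limma-voom and under the Xist covariate. With that covariate, 39 of the 49 estimates were higher in FOXO3 KO and 10 lower, with a median log2 fold change of 0.21. The median was 0.12 in the reported fit and -0.15 without WT 3, so these 2 alternatives moved it in opposite directions. The cause of these changes was not tested.

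The labels do not say whether replicate numbers pair the samples. Deviations of same-numbered libraries from their group means correlated with r = 0.256, -0.0722 and 0.524 over 15608 genes. Those of differently numbered libraries correlated with r between -0.518 (WT 2 with FOXO3 KO 3) and 0.552 (WT 2 with FOXO3 KO 1). With 3 libraries a group, these values cannot decide whether the samples are paired. With the replicate number as a block, 1 of the 49 genes and 1 related gene were higher at an unadjusted p under 0.05, Atp6v0d2 was at 0.12, and no gene was called. Among all 15608 genes, 1033 were past that p in either direction in this fit.

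With 1 library left out at a time, the number of the 49 past an unadjusted p under 0.05 was 0 to 2 higher and 0 to 2 lower (Ctse and Ctsf without WT 2, Ctsk and Acp5 without WT 3), and lower estimates numbered 7 (without WT 2) to 44 (without WT 3). Related genes past it numbered 1 to 3 higher and 0 to 4 lower. Among all genes tested, 583 of 15795 (without FOXO3 KO 3) to 1539 of 16385 (without WT 2) were past it in either direction. Genes with every FOXO3 KO library below WT numbered 2 without FOXO3 KO 2. Signs changed for 33 of the 49 without WT 3, among them Asah1 and Manba at values that round to 0.00, and for 2 to 6 without any other library. The log2 fold changes of the other genes whose sign changed ranged as follows when libraries were left out: Atp6ap1 -0.14 to 0.37, Atp6v0c -0.12 to 0.50, Atp6v0d2 -0.44 to 0.27, Atp6v1a -0.22 to 0.44, Atp6v1b2 -0.24 to 0.44, Atp6v1d -0.06 to 0.46, Atp6v1e1 -0.17 to 0.44, Atp6v1h -0.03 to 0.56, Cd63 -0.32 to 0.46, Cd68 -0.19 to 0.39, Cst3 -0.25 to 0.08, Ctsa -0.08 to 0.42, Ctsb -0.19 to 0.47, Ctsd -0.22 to 0.50, Ctsh -0.17 to 0.21, Ctsl -0.33 to 0.46, Ctss -0.20 to 0.46, Ctsz -0.11 to 0.55, Dnase2a -0.25 to 0.34, Fnip2 -0.09 to 0.57, Gaa -0.01 to 0.27, Galc -0.24 to 0.46, Glb1 -0.10 to 0.05, Gusb -0.05 to 0.57, Hexa -0.15 to 0.46, Lamp1 -0.12 to 0.49, Lgmn -0.20 to 0.39, Lyz2 -0.18 to 0.10, Mcoln1 -0.23 to 0.20, Naglu -0.15 to 0.35, Neu1 -0.01 to 0.44, Npc1 -0.12 to 0.40, Npc2 -0.15 to 0.37, Psap -0.23 to 0.41, Scarb2 -0.13 to 0.18, Serpinb1a -0.88 to 0.15, Smpd1 -0.17 to 0.15 and Tpp1 -0.07 to 0.45.

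Fits chosen after the data were seen left out WT 3 and FOXO3 KO 2 together (45 of 49 estimates lower; 2 genes higher and 1 lower at an unadjusted p under 0.05), or WT 3 and FOXO3 KO 3 together (34 lower; 1 gene higher and 1 lower at that p), or FOXO3 KO 2 with the Xist covariate (1 gene higher and 1 lower). With 3 libraries a group and WT 3 this far from the others, small changes of these genes could not be resolved.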

Other observations

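Levels of single genes within the group did not keep 1 ratio across libraries. The ratio of Lyz2 to Ctsb was 0.992, 1.02 and 2.19 in WT 1, 2 and 3 and 0.913, 1.05 and 1.12 in FOXO3 KO 1, 2 and 3. That of Ctsk to Ctss was 0.117, 0.114 and 0.0747 in WT and 0.0888, 0.0627 and 0.0532 in FOXO3 KO, where the highest FOXO3 KO library lay below WT 1 and 2 and above WT 3. Among the related genes, Pld3 was lower in FOXO3 KO without WT 3 (log2 fold change -0.45, unadjusted p = 0.0412 from edgeR). Cd164 and Pld4 were higher in that fit (0.30 and 0.28, unadjusted p = 0.00985 and 0.0328), and none of these genes was past an adjusted p of 0.05. Over all 6 libraries the log2 fold changes of Pld3, Cd164 and Pld4 were -0.07, 0.04 and 0.25. Without the library labelled FOXO3 KO 2 they were -0.09, 0.07 and 0.30. Red blood cell markers summed to 117 and 182 CPM in FOXO3 KO 1 and 3 and to between 9.23 and 27.0 CPM elsewhere, and markers of mesothelial cells and fibroblasts to 510.3 CPM in the library labelled FOXO3 KO 2 and to between 43.8 and 181 CPM elsewhere. Markers of T and NK cells were between 35.1 and 97.8 CPM, of dendritic cells up to 173 CPM, and of eosinophils between 37.4 and 95.0 CPM. In WT 3 single markers of the last 2 lists went different ways. Ccr7 made up 119 of the 173 CPM of the dendritic sum there, while 4 of the 8 dendritic cell markers were lowest in WT 3. Il5ra made up 80.2 of the 92.9 CPM of the eosinophil sum there, while Siglecf (3.72 CPM) and Ccr3 (8.92 CPM) were lowest in WT 3. No listed marker was at 0 in all 6 libraries.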
